A study of Homo sapiens with 4 samples.

Results

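This account covers 10 genes of the pathway that leads from recognition of RNA to interferon beta. They are the cytosolic RNA sensors DDX58 (RIG-I, now named RIGI), IFIH1 (MDA5) and DHX58 (LGP2), the endosomal sensor TLR3, the adaptor MAVS, the kinase TBK1, the transcription factors IRF3 and IRF7, the cytokine gene IFNB1 and the kinase EIF2AK2 (PKR). They were chosen by name from pathway knowledge, and every probe set that the platform annotation assigns to one of them alone was read. This gave 21 probe sets of 54675 in all, and 10 of the 19740 genes that could be named. Of the 21, 13 were above the detection floor on all 4 arrays, 16 on at least 1 array and 5 on none. A probe set counted as detected above a floor of 49.0, the median signal pooled over the arrays without control probe sets, since no detection calls were used.

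The cells were the human lung adenocarcinoma lines CL1-0 and CL1-5, of which CL1-5 is an invasive subline selected from CL1-0. The 4 groups, with 1 array each, were CL1-0 with a PSAT1 expression vector, CL1-0 with a control vector, CL1-5 with a short hairpin against PSAT1 and CL1-5 with a non-silencing hairpin. PSAT1 is an aminotransferase of serine synthesis. Per the labels, all 4 cell populations had been stably transduced and selected with puromycin for 2 weeks, so the selection drug and a stable insert are common to treated and control cells. The labels do not say whether they were clones or pools. With a single culture per group, an effect of the construct and a difference between cultures or arrays cannot be told apart.

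Cytosolic RNA sensors distinguish foreign or misplaced RNA from ordinary cellular RNA. RIG-I binds the ends of short double-stranded RNA that carry triphosphates, MDA5 binds long double-stranded RNA, and LGP2 resembles both but lacks the signalling domains. Bound RIG-I and MDA5 act through MAVS on mitochondria, TBK1 then phosphorylates IRF3 and IRF7, and these factors with NF-kB switch on IFNB1. TLR3 senses double-stranded RNA in endosomes through a separate adaptor, and PKR binds double-stranded RNA and halts translation by phosphorylating eIF2 alpha. Secreted interferon acts back on cells through the factor complex ISGF3, and the sensors, IRF7 and PKR are known to be induced in this loop, whereas MAVS, TBK1 and IRF3 are largely constitutive.

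Groups without replicates allow no statistical test, and none is given. Genes are said to have risen or fallen, or to be higher or lower, where a pair of arrays differed at least 2-fold. Where 1 array of a pair was at the floor, the fold was taken against the floor and is given as "at least". Probe sets that target one gene disagreed in log2 ratio with a standard deviation of 0.29 for CL1-0, 0.17 for CL1-5 and 0.51 for the control arrays, which is no replicate error. Medians of all signals were 53.2 on both CL1-0 arrays and 46.0 and 45.4 on the CL1-5 arrays with and without the PSAT1 hairpin. The ratio of 3' to 5' signal of ACTB, a sign of RNA integrity, was 1.22 and 1.18 in CL1-0 with PSAT1 and with vector, and 1.38 and 1.34 in CL1-5 with the PSAT1 and the non-silencing hairpin.

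PSAT1 was read as a check of the labels. Its brighter probe set gave, in CL1-5, a signal of 143 with the PSAT1 hairpin and 1760.0 with the non-silencing one, and 5494 with the vector carrying PSAT1 against 4214 with the control vector in CL1-0. The difference in CL1-0 was 1.30-fold, short of the 2-fold rule. Its other probe set read 107 with the PSAT1 hairpin and 384 with the non-silencing one in CL1-5 (3.58-fold, against 12.3-fold on the brighter probe set), and in CL1-0 it read 1617 with PSAT1 and 1509 with vector (1.07-fold). The labelled cell type is the type II alveolar cell. Of 8 markers of that type with a probe set, 6 were above the floor on every array with a summed signal between 642 and 877, while the surfactant gene SFTPD and SLC34A2 were at the floor throughout. Of 10 epithelial markers, EPCAM, CDH1, KRT19, ESRP1 and GRHL2 were at the floor on all 4 arrays. KRT7, KRT8 and KRT18 were above it on all 4, and CLDN4 and CLDN7 on some. KRT18 read 635 with PSAT1 and 757 with vector in CL1-0, and 5657 with the PSAT1 hairpin and 5308 with the non-silencing one in CL1-5. Of 9 immune markers, 7 were at the floor on all 4 arrays, including PTPRC and CD14, and the summed signal lay between 203 and 268.

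With PSAT1 in CL1-0, DDX58 and IFIH1 fell and no member rose. The main DDX58 probe set was 14.7-fold lower than with vector, and IFIH1 was at least 7.41-fold lower. The second value depends on the floor and was at least 20.8-fold with a floor at the 25th percentile (signal 17.4) and at least 3.58-fold with one at the 65th (signal 101). In the same pair IFNB1 was above the floor with vector only, and DHX58 read 1.91-fold less with PSAT1, just short of the 2-fold rule. In bulk RNA, fewer cells that express a gene and less RNA per cell cannot be told apart. On the brightest probe set of each gene, the adaptor, the kinases and the IRF factors stayed under 1.5-fold. Among the 9 members measured in this pair, that is above the floor on at least 1 of its arrays, 2 were lower and 0 higher, where 1.01% of 13187 genes were lower and 2.56% higher (3.56% in either direction). Their median log2 ratio was -0.37, against -0.01 over all measured genes, with 6 negative and 3 positive. After quantile normalization or centring, 7 were negative and 2 positive, since IRF3, close to no difference, turned sign. IFIH1 and IFNB1 were measured in this pair only through the vector array, so in them only a fall could have been seen.

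With the PSAT1 hairpin in CL1-5, IFIH1 rose 3.25-fold and no member fell. DDX58 went the same way on all of its probe sets without reaching 2-fold. Of 8 measured members 1 was higher and 0 lower, where 0.398% of 12821 genes were higher and 0.421% lower (0.819% in either direction). The members' median log2 ratio was 0.21, against 0.02 over all measured genes, with 5 positive and 3 negative. TLR3 and IFNB1 were at the floor on both arrays of this pair.

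**Figure D1:**
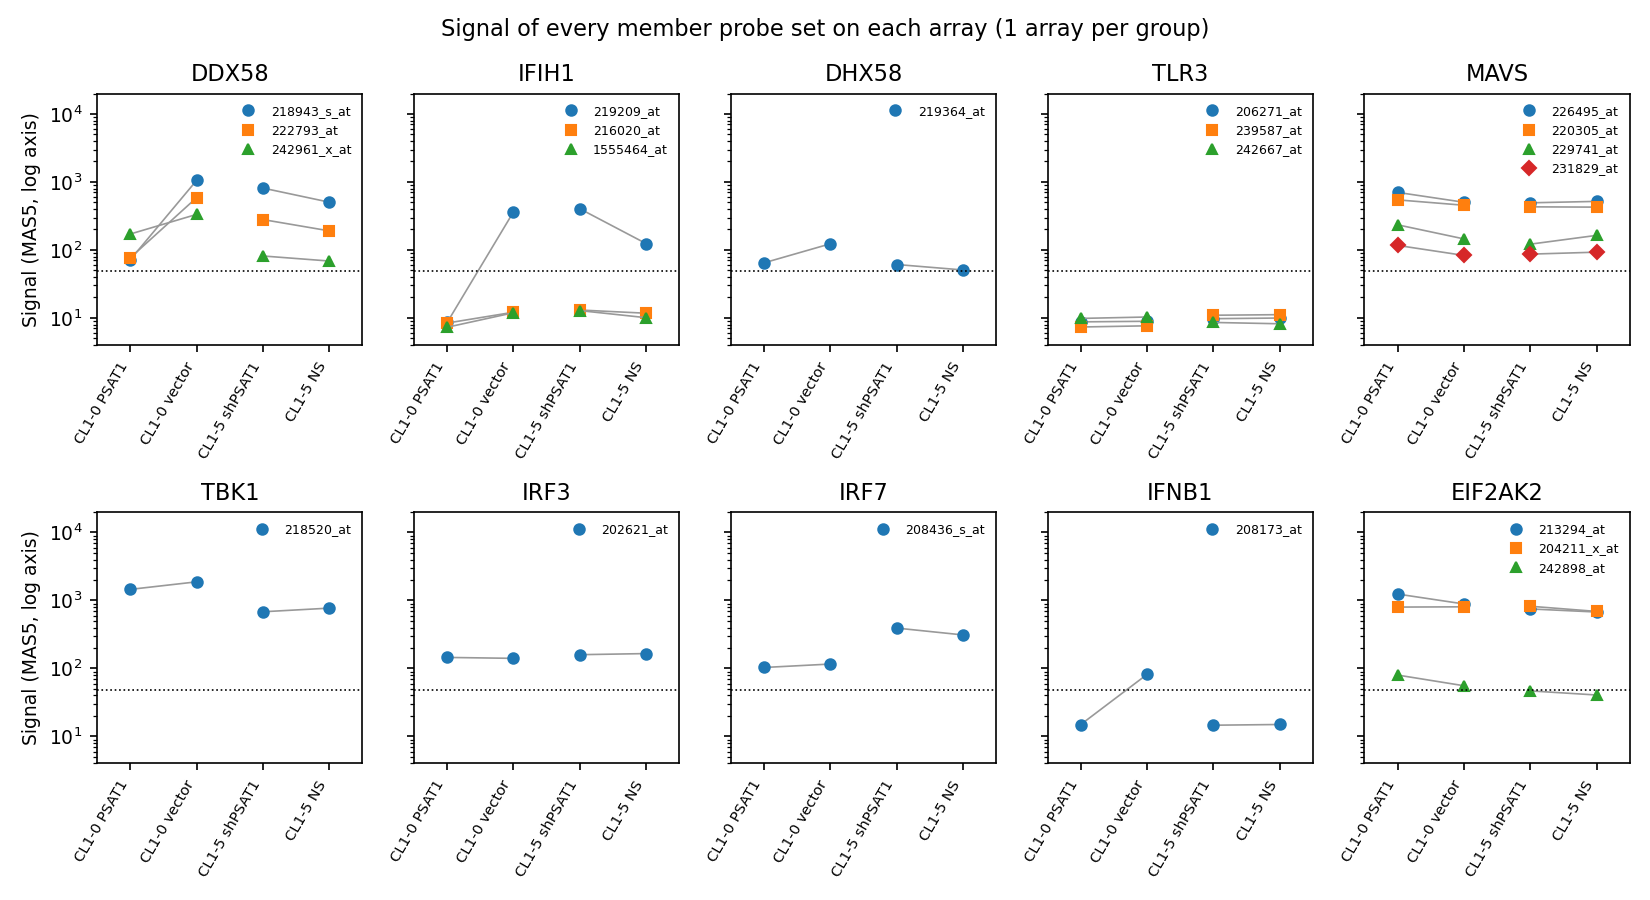
Signal of each of the 21 member probe sets (y axis, MAS5 signal on a log scale) on the 4 arrays (x axis), 1 panel per gene and 1 marker per probe set, with grey lines joining the arrays of a line and a dotted line at the floor of 49.0. In CL1-0, the brighter probe sets of DDX58 (72.1 and 76.9 with PSAT1, 1057 and 589 with vector) and 219209_at of IFIH1 (8.58 and 363) separate the arrays, IFNB1 is above the floor with vector alone, and the TLR3 probe sets stay between 7.36 and 11.2.

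DDX58, the gene of RIG-I, was seen by 3 probe sets. The brightest, 218943_s_at, read 72.1 in CL1-0 with PSAT1 against 1057 with vector, and 813 in CL1-5 with the PSAT1 hairpin against 504 with the non-silencing hairpin. The probe set 222793_at read 76.9 against 589 in CL1-0 and 280 against 191 in CL1-5. The dimmest with vector, 242961_x_at, whose ending marks possible cross-hybridisation, read 172 against 334 in CL1-0 and 81.5 against 68.7 in CL1-5. The PSAT1 array was thus the lowest of the 4 on the brighter probe sets. As deposited, the vector array was the highest on all 3, but on 218943_s_at the hairpin array of CL1-5 was above it after quantile normalization (log2 0.36) and after centring (0.27). All DDX58 values were above the floor. The log2 ratios in CL1-0 were -3.87, -2.94 and -0.96, all negative but differing among themselves by more than the spread of 0.29 between probe sets. Only 0.0834% of the measured genes had a log2 ratio as low as the first of these, which ranked as number 11 among the falls. In CL1-5 the log2 ratios were 0.69, 0.55 and 0.25, the largest of them 1.61-fold, and 1.08% of genes had a ratio as high as that of the brightest probe set.

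IFIH1, the gene of MDA5, was read by 1 of its 3 probe sets. On 219209_at it read 8.58 in CL1-0 with PSAT1 against 363 with vector, and 403 in CL1-5 with the PSAT1 hairpin against 124 with the non-silencing hairpin. The PSAT1 array was at background. As deposited, the hairpin array of CL1-5 and the vector array of CL1-0 differed by 0.15 on the log2 scale, but by 0.82 after quantile normalization and 0.80 after centring, with the hairpin array higher each time. The log2 ratio was at most -2.89 in CL1-0, a bound set by the floor, and 1.70 in CL1-5 (number 7 among the rises). The other probe sets, 216020_at and 1555464_at, read between 7.30 and 13.1 on all arrays and are uninformative, so every statement on IFIH1 rests on 219209_at. IFIH1 was the 1 member past 2-fold in both pairs, and its directions were opposite. Of 11941 genes measured in both pairs, 11 were 2-fold lower in CL1-0 with PSAT1 and 2-fold higher in CL1-5 with the hairpin, 2 the other way round and 4 the same way in both.

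Since the ratio of IFIH1 in CL1-0 is a bound, the genes nearest to it depend on the floor. With the floor of 49.0, the genes whose log2 ratios in both pairs lay closest, by Euclidean distance over 11940 other genes, were CMPK2, ISG15 and NEFL. CMPK2, a mitochondrial nucleotide kinase, was at a distance of 0.40 with ratios of -2.51 in CL1-0 and 1.82 in CL1-5. ISG15, a ubiquitin-like protein, was at 1.09 with ratios of -1.82 and 1.47. NEFL, a neurofilament protein, was at 1.14 with ratios of -2.78 and 0.57. The likeness covers 4 arrays. With a floor at the 25th percentile, an alternative for this result chosen after seeing the data, the nearest were OASL, TFPI2 and DDX58, and CMPK2 was number 8 at a distance of 1.87. With one at the 65th they were ISG15, IFI6 and CMPK2.

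DHX58, the gene of LGP2, has 1 probe set here and was dim. It read 64.6 in CL1-0 with PSAT1 against 123 with vector, and 61.1 in CL1-5 with the PSAT1 hairpin against 50.7 with the non-silencing hairpin. The vector array was the highest and the other arrays lay close above the floor. The log2 ratios were -0.93 and 0.27. The first was just past 2-fold when arrays were centred on a common median, and was 1.21-fold with a floor at the 65th percentile (signal 101). TLR3 was not detected: its 3 probe sets read between 7.36 and 11.2 on all 4 arrays, and no ratio was formed.

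IFNB1, the end point of the pathway, was above the floor on 1 array. Its probe set 208173_at read 15.0 in CL1-0 with PSAT1 against 81.9 with vector, and 14.6 in CL1-5 with the PSAT1 hairpin against 15.0 with the non-silencing hairpin. The vector array of CL1-0 thus stood apart from 3 arrays at the same background level. Against the floor of 49.0 the difference in CL1-0 was at least 1.67-fold (log2 ratio -0.74), which 2.18% of genes matched or passed, and it does not count as a fall by the 2-fold rule. Against a floor at the 25th percentile, a signal of 17.4, it was at least 4.69-fold. None of the 16 other type I and III interferon genes with a probe set (IFNA genes, IFNW1, IFNK, IFNE, IFNL1 and IFNL2) was above the floor on any array, and their summed signal lay between 262 and 294 on the 4 arrays.

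**Figure D2:**
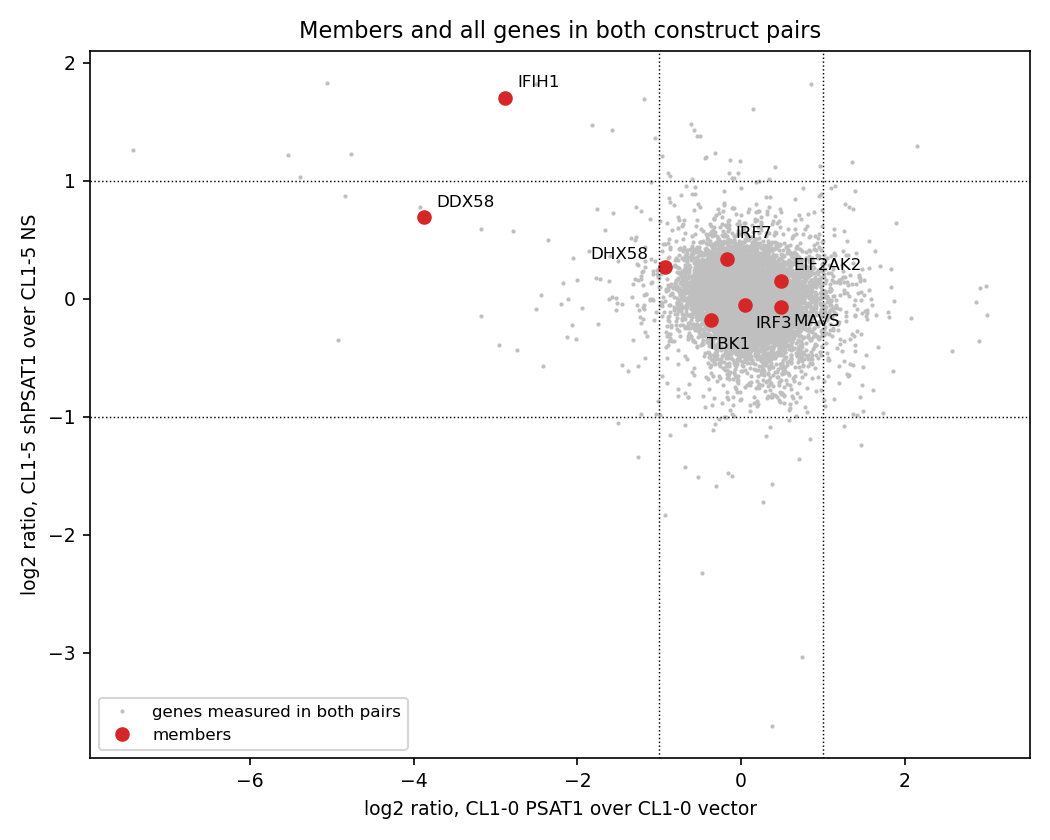
Log2 ratio with PSAT1 over vector in CL1-0 (x axis) against log2 ratio with PSAT1 hairpin over non-silencing hairpin in CL1-5 (y axis) for the 11941 genes measured in both pairs (grey) and the 8 members among them (red, named), with dotted lines at 2-fold. IFIH1 (-2.89, 1.70) lies beyond both lines, DDX58 (-3.87, 0.69) beyond the line of CL1-0, and the other members lie within both.

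DDX58, IFIH1, DHX58 and IFNB1 had the lowest ratios of all members in CL1-0, and promoters were searched for letters that IRF, NF-kB and STAT factors are known to bind. Windows of 300 bases, from 250 before to 50 after the start of the gene, were taken from RefSeq (GRCh38.p14). They were found for 7 of the 10 members, but not for DHX58, IRF3 and IRF7. On both strands, the core of the interferon-stimulated response element, ISRE (GAAA, any 2 bases, GAAA), the shorter IRF motif AANNGAAA (which every match to the core also contains), GGGAAATTC (an NF-kB motif) and TTCNNNGAA (the STAT motif GAS) were searched. Over all 35116 windows of this length, 3.57% held the ISRE core, 22.8% the shorter IRF motif, 0.402% the NF-kB motif and 7.66% the GAS motif. A match describes letters, not a bound site or a cause. The NF-kB motif was shortened after a first search in which IFNB1 already matched, so its match in IFNB1 is no independent finding. It has no variable bases, so its absence from a window says little about other NF-kB sites.

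The sequences of the members that moved most, and of EIF2AK2, which did not reach 2-fold, are shown 5' to 3' on the strand of the gene, from base -250 to base 30, with matches to the ISRE core, the shorter IRF motif and the NF-kB motif in capitals. DDX58 lies at chr9:32526167-32526446, IFIH1 at chr2:162318655-162318934, IFNB1 at chr9:21077913-21078192 and EIF2AK2 at chr2:37156951-37157230, all on the minus strand.
DDX58: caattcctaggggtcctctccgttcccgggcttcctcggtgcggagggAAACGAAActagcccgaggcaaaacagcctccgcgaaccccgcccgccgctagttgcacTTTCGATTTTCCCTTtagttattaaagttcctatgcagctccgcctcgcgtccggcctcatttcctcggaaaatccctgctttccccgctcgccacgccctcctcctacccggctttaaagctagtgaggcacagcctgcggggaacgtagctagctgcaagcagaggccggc
IFIH1: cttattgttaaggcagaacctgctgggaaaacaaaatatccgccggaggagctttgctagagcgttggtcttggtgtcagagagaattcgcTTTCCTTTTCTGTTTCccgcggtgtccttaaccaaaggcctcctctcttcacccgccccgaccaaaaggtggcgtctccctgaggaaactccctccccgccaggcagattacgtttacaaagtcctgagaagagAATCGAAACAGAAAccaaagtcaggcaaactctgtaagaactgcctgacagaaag
IFNB1: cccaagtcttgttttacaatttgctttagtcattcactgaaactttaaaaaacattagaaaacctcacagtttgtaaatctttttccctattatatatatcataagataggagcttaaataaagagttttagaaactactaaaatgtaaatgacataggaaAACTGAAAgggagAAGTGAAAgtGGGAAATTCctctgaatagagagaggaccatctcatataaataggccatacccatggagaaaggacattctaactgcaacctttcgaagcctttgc
EIF2AK2: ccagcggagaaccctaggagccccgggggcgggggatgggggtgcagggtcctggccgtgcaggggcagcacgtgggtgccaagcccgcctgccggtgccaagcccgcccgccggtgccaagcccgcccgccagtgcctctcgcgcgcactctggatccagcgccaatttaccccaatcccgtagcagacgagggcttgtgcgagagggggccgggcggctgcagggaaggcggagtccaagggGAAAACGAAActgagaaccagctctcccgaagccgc

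IFIH1 held 3 matches to the ISRE core, of which those at -159 and -153 overlap each other and another begins at -21. DDX58 held none but had 3 matches to the shorter IRF motif, at -202, -143 and -136. IFNB1 held no ISRE core either, but 2 matches to the shorter motif at -89 and -76, followed by the NF-kB motif at -66, within the stretch known as its virus-responsive enhancer. EIF2AK2 held 1 ISRE core beginning at -6, and TLR3 held 1 beginning at -4. The GAS motif, not in capitals here, was found once in IFNB1, beginning at -218, and in TLR3 at -178 and -50. The windows of MAVS and TBK1 held none of the 4 motifs. An ISRE core was thus present in IFIH1, which fell at least 7.41-fold in CL1-0 with PSAT1, and in EIF2AK2, which did not reach 2-fold. In the same pair EIF2AK2 read 1.40-fold more on 213294_at, but 799 with PSAT1 against 806 with vector on 204211_x_at.

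MAVS, the mitochondrial adaptor shared by RIG-I and MDA5, was well measured on 4 probe sets. On the brightest, 226495_at, it read 702 in CL1-0 with PSAT1 against 503 with vector, and 493 in CL1-5 with the PSAT1 hairpin against 518 with the non-silencing hairpin. All 4 probe sets had positive log2 ratios in CL1-0, between 0.26 and 0.69, and none reached 2-fold. In CL1-5 their ratios lay between -0.43 and 0.01. As deposited, the PSAT1 array of CL1-0 was the highest of the 4 on every MAVS probe set, but after quantile normalization or centring a CL1-5 array was the highest on each (on 226495_at the non-silencing array, at 0.71 and 0.66 over vector).

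TBK1, the kinase that activates IRF3 and IRF7, read 1455 in CL1-0 with PSAT1 against 1879.5 with vector, and 682 in CL1-5 with the PSAT1 hairpin against 771 with the non-silencing hairpin. Both log2 ratios were small, -0.37 and -0.18. IRF3 had signals of 145 against 141 in CL1-0 and 159 against 165 in CL1-5, again with the PSAT1 construct before its control. As deposited its log2 signals spanned 0.23 over the 4 arrays, but 0.77 after quantile normalization and 0.87 after centring, with both CL1-5 arrays above both CL1-0 arrays. IRF7, the interferon-inducible relative of IRF3, read 103 in CL1-0 with PSAT1 against 116 with vector, and 392 in CL1-5 with the PSAT1 hairpin against 311 with the non-silencing hairpin. Its log2 ratios were -0.17 and 0.33, while both CL1-5 arrays were above both CL1-0 arrays. The IRF7 probe set 208436_s_at may be shared between transcripts, as its ending marks.

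EIF2AK2, the gene of PKR, did not move with DDX58 and IFIH1 in CL1-0. On 213294_at it read 1242 in CL1-0 with PSAT1 against 888 with vector, and 750.2 in CL1-5 with the PSAT1 hairpin against 676 with the non-silencing hairpin. On 204211_x_at it read 799 against 806 in CL1-0 and 822 against 690 in CL1-5. The dim 242898_at read 79.9 against 55.7 in CL1-0 and was at the floor on both CL1-5 arrays. The log2 ratios in CL1-0 were 0.48, -0.01 and 0.52, so the sign was not shared by all probe sets, and in CL1-5 they were 0.15 and 0.25 on the probe sets above the floor.

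The rest of the pathway was read from lists. Of 21 regulators of the sensors with a probe set, 19 were measured in CL1-0, with 2 lower and 0 higher, where 1.01% of 13187 genes were lower. These 2 were above the floor with vector alone and could only have fallen. Of the 17 above the floor on both arrays, 0 were lower and 0 higher. IFIT1, which binds viral RNA ends, fell at least 172-fold (24.1 with PSAT1, 8422 with vector), and DDX60, a helicase reported to assist RIG-I, fell at least 2.16-fold (11.5 and 106). TRIM25 and RNF135, ubiquitin ligases that activate RIG-I, had log2 ratios of 0.04 and 0.41. In CL1-5, 1 of 20 was higher, IFIT1 (2.39-fold), where 0.398% of 12821 genes were, and DDX60 had a ratio of 0.68. The lists overlap, with 182 entries for 177 genes. IFIT1 and ZC3HAV1 are counted again below among the early IRF3 targets, as are TNFAIP3 of the relay list and IFNL1 of the interferon genes. IRF9, listed with the IRF genes, is counted again among the ISGF3 targets. The median log2 ratios of the regulators were -0.13 and 0.05.

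None of 18 signal relay genes reached 2-fold in either pair, with medians of 0.02 and 0.02. Nearest to 2-fold in CL1-0 was TNFAIP3, a feedback inhibitor of NF-kB, with 131 with PSAT1 against 244 with vector (log2 ratio -0.90), and in CL1-5 it read 602 with the PSAT1 hairpin against 435 with the non-silencing hairpin (0.47). TICAM1, the adaptor of TLR3, had ratios of -0.31 and 0.00, and IKBKE, the kinase related to TBK1, of -0.15 and 0.05. Of 13 other IRF genes and partners on the IFNB1 enhancer, 1 fell in CL1-0, JUN (238 with PSAT1 and 498 with vector, 2.10-fold), and none changed in CL1-5. IRF1 had ratios of -0.68 and 0.05. Over all measured genes, 3.56% in CL1-0 and 0.819% in CL1-5 passed 2-fold in either direction. A count of 0 in a list this short is near those shares.

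DNA sensors and other endosomal receptors had no 2-fold change among 8 measured genes in CL1-0 and 9 in CL1-5. CGAS, which senses cytosolic DNA, read 250.5 with PSAT1 against 453 with vector (log2 ratio -0.85). STING1, its partner, was at the floor on both CL1-0 arrays and read 179 with the PSAT1 hairpin against 228 with the non-silencing hairpin in CL1-5. None of 10 genes that edit or degrade double-stranded RNA changed in either pair, and ADAR, the editor that shields cellular RNA from MDA5, had ratios of -0.06 and 0.12. Likewise none of 10 genes of the other eIF2 kinases and their partners changed. Their largest ratio in CL1-0 was -0.51, in DNAJC3, an inhibitor of PKR. Here too, a count of 0 in lists this short is near the shares over all genes, 3.56% in CL1-0 and 0.819% in CL1-5.

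**Figure D3:**
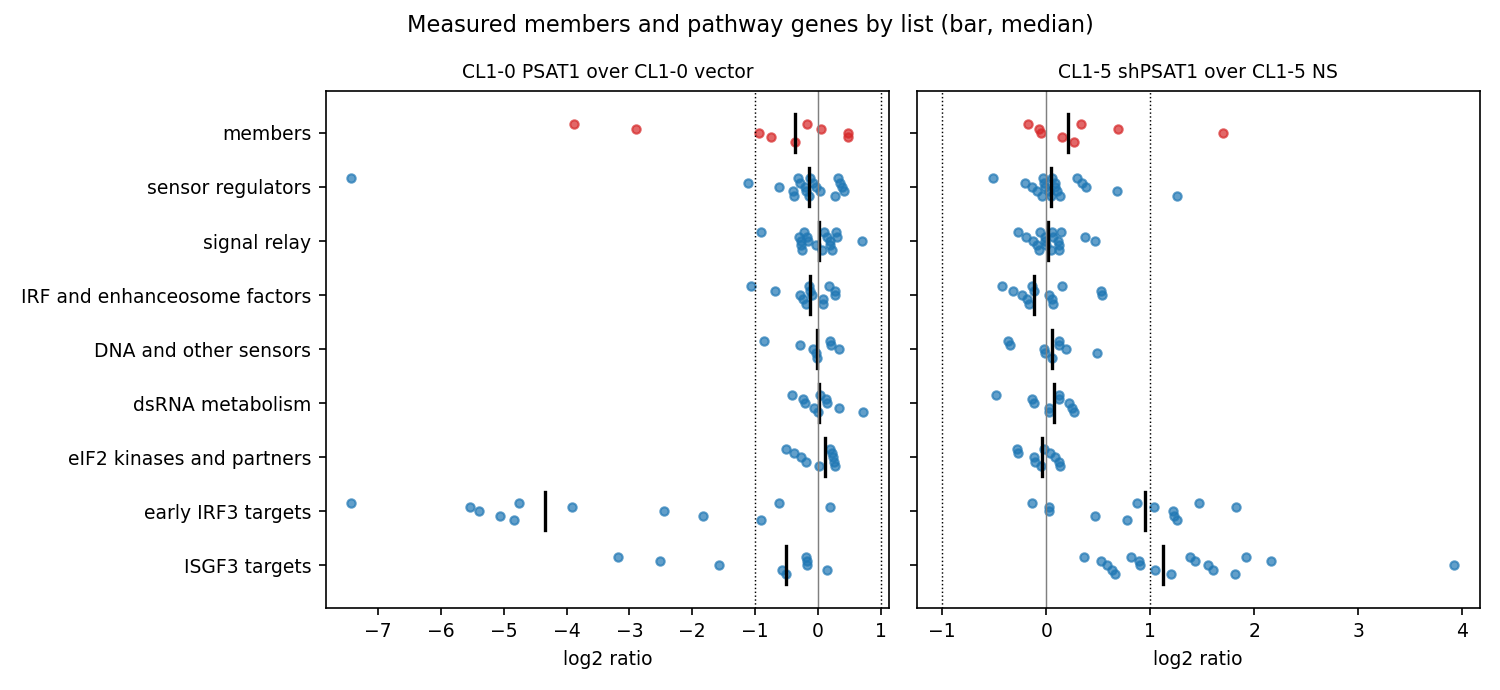
Log2 ratios of the measured members (red) and of the measured genes of each pathway list (blue) in CL1-0 with PSAT1 over vector (left) and CL1-5 with PSAT1 hairpin over non-silencing hairpin (right), with a black bar at each median and dotted lines at 2-fold. The target lists shift most, with the early IRF3 targets at a median of -4.34 on the left, where 7 of 12 values are bounds set by the floor, and 0.95 on the right, while the relay, DNA sensor, RNA metabolism and eIF2 lists lie within 2-fold of zero.

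Genes downstream of the pathway were split into those that IRF3 is known to induce directly and those known chiefly as targets of ISGF3. Of the 14 early IRF3 targets, 12 were measured in CL1-0, where 1.01% of 13187 genes were lower. Of the 12 measured targets, 9 fell and 0 rose. Of these, 7 were above the floor with vector alone and could only have fallen, while 2 of the 5 above the floor on both arrays fell, ISG15 and OASL. The median log2 ratio of -4.34 is set by such bounds and depends on the floor. RSAD2, viperin, read 17.9 with PSAT1 against 1638 with vector, and the chemokine CCL5 read 25.2 against 2055. In CL1-5, 6 of 12 were higher and 0 lower, with a median of 0.95, where 0.398% of 12821 genes were higher. The rises were led by RSAD2 (235 with the PSAT1 hairpin and 66.2 with the non-silencing hairpin, 3.55-fold) and ISG15 (6968 and 2510.5, 2.78-fold). Both target lists were put together with earlier results of these arrays known, so neither the direction of a list nor the split between the lists is independent evidence.

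Of the 20 ISGF3 targets with a probe set, 11 were at the floor on both CL1-0 arrays, including MX1 (17.9 with PSAT1 and 21.3 with vector), OAS2 (12.2 and 21.1) and IFI27 (35.5 and 40.1). Of the 9 measured in CL1-0, 3 fell, HERC5 (9.06-fold), CMPK2 (5.69-fold) and IFI6 (2.97-fold), and the median was -0.50. In CL1-5, 18 were measured, all with positive ratios, and 10 rose (2 of the 18 were above the floor with the PSAT1 hairpin alone), among them IFI27 (15.2-fold), MX1 (4.47-fold) and OAS2 (3.78-fold). Their median was 1.12. Over all measured genes, 1.01% were lower in CL1-0 and 0.398% higher in CL1-5, and the median log2 ratios were -0.01 and 0.02. The vector array of CL1-0, which held the 1 IFNB1 signal above the floor, had 12 of 14 early IRF3 targets above the floor and 9 of 20 ISGF3 targets. The non-silencing array of CL1-5, with IFNB1 at the floor, had 12 of 14 and 16 of 20. The PSAT1 array of CL1-0, also with IFNB1 at the floor, had 5 of 14 and 9 of 20. Of all probe sets without controls, 52.0% were above the floor on the vector array, 48.0% on the non-silencing array and 51.7% on the PSAT1 array. These shares count single probe sets, while the lists count genes by their brightest probe set, so the 2 are not alike. By gene, 13187 of 19740 were above the floor on at least 1 CL1-0 array and 12821 on at least 1 CL1-5 array. For the ISGF3 targets these counts were 9 and 18 of 20, and for the early IRF3 targets 12 of 14 in each line.

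**Figure D4:**
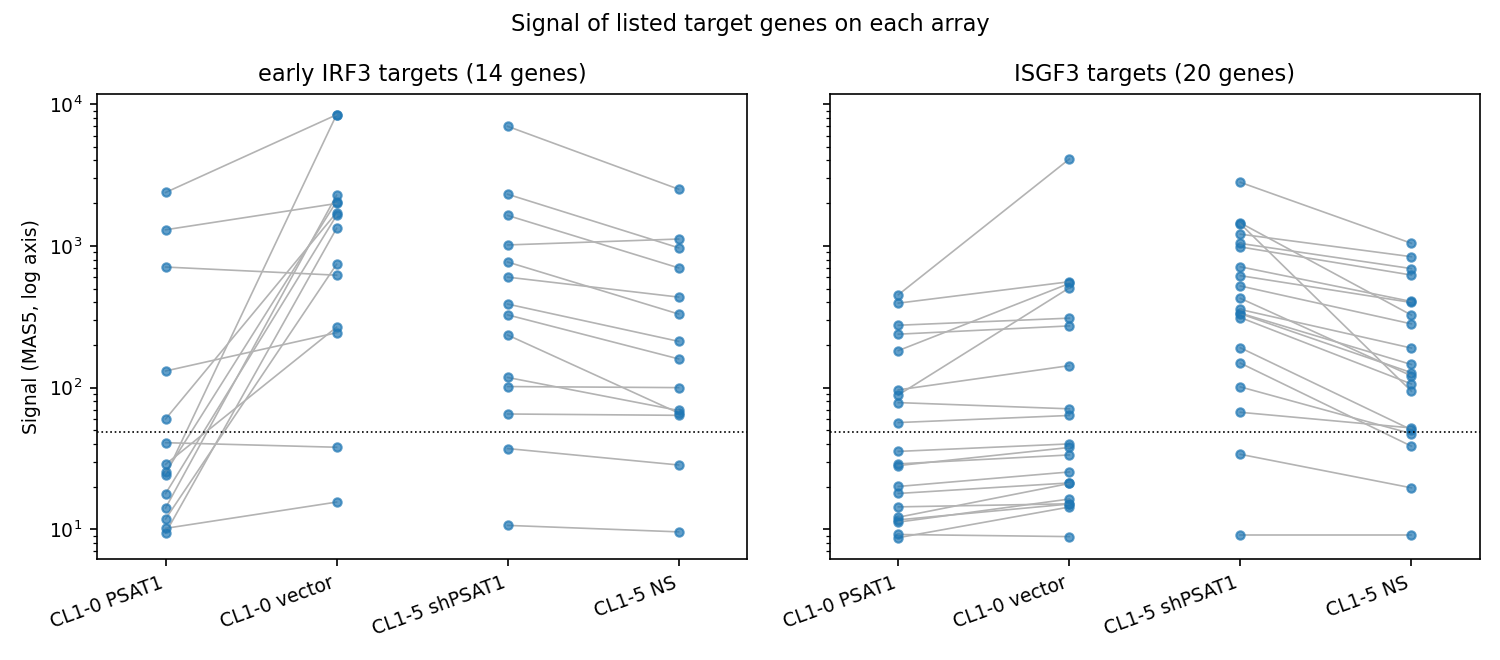
Signal (y axis, MAS5 signal on a log scale) of the 14 early IRF3 targets (left) and the 20 ISGF3 targets (right) on the 4 arrays, 1 point per gene and array, grey lines joining the arrays of a line and a dotted line at the floor of 49.0. On the left 5 genes are above the floor with PSAT1 and 12 with vector in CL1-0, while on the right 9 are above it on each CL1-0 array and 18 and 16 on the CL1-5 arrays with the PSAT1 and the non-silencing hairpin.

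The control arrays were last set against each other, CL1-5 with the non-silencing hairpin over CL1-0 with vector. These arrays also enter the construct pairs, so the comparisons are not independent. As deposited, all genes had a median log2 ratio of -0.49, and 24.8% of 13720 measured genes were lower and 5.25% higher in CL1-5, 30.0% in all (17.5% of the calls higher, but 51.6% after quantile normalization, which brought the median to 0.00). Ratios between the lines are therefore given on both scales. IRF7 was higher in CL1-5, with a log2 ratio of 1.42 as deposited and 1.91 after quantile normalization. IFIH1 was lower, with -1.55 and -1.03, and so was DHX58, with -1.28 and -1.01, but both stayed under 2-fold when arrays were centred (-0.94 and -0.66). TBK1 (-1.29 and -0.55) was 2-fold lower as deposited only, and so was DDX58 on its brightest probe set (-1.07 and -0.35). The other DDX58 probe sets were 2-fold lower on all of these scales. The brighter of them had -1.63 as deposited, -1.03 after quantile normalization and -1.01 after centring. The dimmer, whose ending marks possible cross-hybridisation, had -2.28, -1.86 and -1.67. By the brightest probe set of each gene, 5 of 9 measured members passed 2-fold as deposited, 3 after quantile normalization and 1, IRF7, after centring. Of all measured genes, 30.0%, 18.5% and 18.9% did so on these scales. The summed signal of the 10 epithelial markers was 7069 on the non-silencing array of CL1-5 against 1141 on the vector array of CL1-0. Most of it came from KRT18 (5308 against 757) and, in CL1-5, KRT8 (1271 against 77.8). The part of this sum in the differences between the lines was not tested. The remaining ratios as deposited were 0.04 for MAVS, 0.23 for IRF3 and -0.39 for EIF2AK2 (0.32 after quantile normalization), with IFNB1 at least 1.67-fold lower.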

How the data were processed

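Total RNA of 4 cell populations, 1 per group, was measured on 1-colour Affymetrix arrays, from 6 ug of RNA per the labels' protocols. The deposited values are linear signal intensity, 1 value per probe set and array, made by the authors with MAS5 per the submitters' processing notes. Its version and scaling target are not given in the sources used here. Precision is limited by having 1 array per group, which allows no test.

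Of 54675 probe sets, 62 were controls, 41097 carried 1 gene symbol, 1801 several (which named no gene) and 11777 none in the annotation used. Symbols were updated by gene ID for 41043, and 59 probe sets of Y-linked and X-inactivation genes were left out. Signals below the pooled median of 49.0 were set to it and log2 transformed. A gene was represented by its brightest probe set (highest mean floored log2 signal), while for the members every probe set is shown. Genes at the floor on both arrays of a pair were not measured in it. Changes of 2-fold or more were counted. Genes of the 12 lists (177 genes, 19 without a named probe set) were named if among the 4 with the largest ratio per pair, and otherwise for their role or as part of a small count, after their values were seen. The members and lists were chosen with earlier results of these data known. The calling was checked on simulated data. Alternatives were quantile normalization, median centring, floors at the 25th and 65th percentile, the mean over probe sets, no probe sets ending in _s_at, _x_at or _a_at, and a 1.5-fold rule. Python 3.11.15, numpy 2.4.6 and pandas 2.3.3 were used.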

Additional observations from a re-analysis of the deposited data

Results flagged for a closer look

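With 1 array per group, a result was picked out where a member or listed gene passed 2-fold in opposite directions with PSAT1 in CL1-0 and with the PSAT1 hairpin in CL1-5. The difference between the pairs was not tested. Among the members this was IFIH1, with log2 ratios of -2.89 in CL1-0 and 1.70 in CL1-5. Among the listed antiviral RNA-binding genes, IFIT1 had -7.42 and 1.26, IFIT2 had -5.54 and 1.22, and IFIT3 had -4.76 and 1.23. The ubiquitin-like ISG15 had -1.82 and 1.47, and RSAD2 had -5.06 and 1.83. The chemokine CCL5 had -5.39 and 1.03, the membrane protein IFI6 had -1.57 and 1.43, and CMPK2 had -2.51 and 1.82. The values of IFIH1, IFIT1, IFIT2, IFIT3, RSAD2 and CCL5 in CL1-0 are bounds, since the PSAT1 array was at the floor. The ACTB 3' to 5' ratio differed little within each line (1.22 and 1.18 in CL1-0, 1.38 and 1.34 in CL1-5), and its part in these results was not tested.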

How the results depend on the processing

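Leaving out an array was not possible with 1 per group. No paired analysis was possible because each group holds 1 sample. Of 176 member ratios recomputed under 7 alternatives, 159 stayed on the same side of the fold rule, 10 no longer passed it and 7 newly passed it. None of the ratios past 2-fold in the main setting turned sign. Smaller ratios were not checked for sign in this count, and some turned. Under quantile normalization and centring these included IRF3 in CL1-0 and EIF2AK2 between the control arrays. In CL1-0 with PSAT1, DDX58 on 218943_s_at stayed between 10.4-fold and 15.4-fold lower. It was 7.66-fold lower without probe sets ending in _s_at, _x_at or _a_at, where 222793_at stood for the gene. With the mean over its probe sets it was 6.02-fold lower. With the mean over probe sets, the members changed were 1 in CL1-0 and 0 in CL1-5, since IFIH1's undetected probe sets then enter its mean (log2 ratios of -0.96 and 0.57), and 245 genes changed in CL1-0 instead of 470. With a 1.5-fold rule, 4 members and 1749 genes changed in CL1-0, 2 members and 490 genes in CL1-5, and 7271 genes between the control arrays. Between the control arrays, quantile normalization left 3 members and 2529 genes changed, and centring 1 member and 2626 genes, instead of 5 and 4122. In CL1-0, among settings with the 2-fold rule, DHX58 passed only with centring and IFNB1 only with the 25th percentile floor (at least 4.69-fold). The order of the 4 arrays on other scales, the neighbours of IFIH1 under other floors and the count of early IRF3 targets above the floor on both arrays were added after seeing the data. The IFIH1 bound in CL1-0 ranged with the floor from 3.58-fold to 20.8-fold. Values near the floor, as of DHX58 and IFNB1, are limited by signal over background.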
